A study of Mus musculus with 12 samples.

Results

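Kinesin motor genes were taken as the autosomal protein-coding genes of the GENCODE M21 annotation (mouse build mm10) whose symbol begins with Kif and a digit, which gave 38 genes of 20807 autosomal protein-coding genes. Of 42 such symbols, 4 stayed outside the rule, among them the X-linked Kif4. The members were sorted by textbook role into 12 division, 9 ciliary and 12 transport kinesins and 5 others. One of the others, Kif1bp, encodes a protein that binds kinesins and is not itself a motor.

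Kinesins are ATP-driven motors that walk along microtubules or, in some families, take microtubule ends apart. Division kinesins build the spindle, move chromosomes and act in cytokinesis, ciliary kinesins carry cargo in cilia or sit in the axoneme of flagella, and transport kinesins haul vesicles and organelles, as is best known from neurons. Spermatocytes in prophase I have yet to pass through both meiotic divisions and, as spermatids, to grow a flagellum.

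Nascent transcription had been measured by leChRO-seq, a run-on assay on insoluble chromatin that maps engaged RNA polymerase, in spermatocytes of adult wild-type mice. Cells were enriched by STAPUT sedimentation, which separates cells by size and density, into 3 fractions, leptonema/zygonema, pachynema and diplonema, with 4 libraries each and 12 in all. All groups carried the same WT genotype and no treatment. The labels do not say whether the 4 libraries came from separate animals, and the study describes 4 biologically independent samples. The libraries of each fraction had been merged before peaks were called with dREG, a classifier that finds sites of divergent transcription initiation, which left 1 peak list per substage and no spread between replicates.

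The leptonema/zygonema list held 71107 peaks and the pachynema list 68352, whereas the diplonema list was shorter, at 38603. Their median scores were 0.586, 0.572 and 0.532. The dREG score is a unitless confidence that a position is an initiation site, and it is not scaled between lists. Each gene was therefore placed inside its own list, by the percentile of its strongest promoter peak among all called autosomal protein-coding genes, so that 50 is the middle of the list. A promoter peak was one whose nearest edge lay under 1000 bp from any annotated transcription start site (TSS) of the gene. Sequencing depth cannot be read from the lists, no test between substages was possible, and a gene without a call is not shown to be silent. In such fractions, fewer cells of a type and less RNA per cell cannot be told apart.

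The fractions carried the marks of spermatocytes. All 13 spermatocyte markers examined had a promoter peak in every list. Of all autosomal protein-coding genes, 60.7%, 61.2% and 52.3% had one in the order of the substages. The median percentile of the spermatocyte markers was 68.6 in leptonema/zygonema, then 77.1 in pachynema and then 93 in diplonema. None of 4 peritubular and vascular markers (Acta2, Myh11, Pecam1, Cdh5) and none of 4 immune cell markers (Ptprc, Adgre1, Cd68, Csf1r) was called in any list. Of 5 Leydig cell markers, 1 was called, Cyp11a1 in pachynema at percentile 6.9. Sertoli cell markers were called for 3, 5 and 4 of 5 genes, and their 60% in leptonema/zygonema was near the share of all genes. Their median percentiles were 19.1, 19.7 and 19.5 in the order of the substages. Gata4 was the strongest in leptonema/zygonema and pachynema, at 36.5 and 41. Of 6 spermatogonia markers, 4, 4 and 3 were called (66.7%, 66.7% and 50%), shares near those of all genes, at medians of 39.2, 39.9 and 4.84. Of 7 spermatid markers, 6 were called in each list, at medians of 34.5, 39 and 53.2, led by Acr at percentiles 93.4, 97.9 and 99.1. Among them Prm1 and Prm2 had the same score as each other in every list. The part of these other cells in the kinesin results was not tested.

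Promoter sequences are shown first for the kinesins at the top of each class and for those whose calls were lost after pachynema. Kif11 encodes the bipolar motor that pushes spindle poles apart, Kif3a a subunit of the heterotrimeric motor of anterograde intraflagellar transport, and Kif13b a motor that carries membrane cargo. These genes had the highest mean percentile over the 3 lists among division, ciliary and transport kinesins. Kif5a (a heavy chain of conventional kinesin found mainly in neurons) and Kif26b (an atypical kinesin) were the members called in both earlier lists and not in diplonema. Each sequence is up to 300 bases, from 250 before to 50 after an annotated TSS and clipped to the peak, read 5′ to 3′ on the gene's strand from GRCm38. The windows are chr19:37376153-37376452 (plus strand), chr11:53567129-53567428 (plus), chr14:64652281-64652580 (plus), chr10:127263046-127263250 (minus) and chr1:178528951-178529174 (plus). The TSS is base 251 in the first 3, base 156 in Kif5a and base 175 in Kif26b. Capitals mark matches, on either strand, to 6 short motifs given with the promoter results.
Kif11: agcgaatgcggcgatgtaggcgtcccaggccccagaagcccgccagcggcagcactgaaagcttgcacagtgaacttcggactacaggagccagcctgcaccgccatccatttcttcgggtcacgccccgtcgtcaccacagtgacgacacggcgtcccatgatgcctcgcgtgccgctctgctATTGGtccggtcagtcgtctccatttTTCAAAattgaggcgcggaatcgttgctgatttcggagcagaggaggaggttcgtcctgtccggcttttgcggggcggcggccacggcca
Kif3a: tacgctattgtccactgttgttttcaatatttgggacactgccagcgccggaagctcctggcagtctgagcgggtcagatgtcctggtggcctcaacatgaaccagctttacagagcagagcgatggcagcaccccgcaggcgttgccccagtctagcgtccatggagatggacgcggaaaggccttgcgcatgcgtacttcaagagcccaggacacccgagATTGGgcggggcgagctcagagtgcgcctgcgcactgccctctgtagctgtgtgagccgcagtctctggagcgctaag
Kif13b: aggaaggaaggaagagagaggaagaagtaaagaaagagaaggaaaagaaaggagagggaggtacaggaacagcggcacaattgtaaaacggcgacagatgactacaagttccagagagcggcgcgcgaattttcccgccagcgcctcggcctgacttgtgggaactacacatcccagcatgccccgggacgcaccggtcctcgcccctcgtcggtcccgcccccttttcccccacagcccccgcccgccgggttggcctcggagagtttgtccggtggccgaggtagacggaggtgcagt
Kif5a: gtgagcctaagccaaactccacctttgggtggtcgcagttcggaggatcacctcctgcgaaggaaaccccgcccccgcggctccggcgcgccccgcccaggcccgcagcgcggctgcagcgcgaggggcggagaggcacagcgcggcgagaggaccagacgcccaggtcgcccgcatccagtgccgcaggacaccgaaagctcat
Kif26b: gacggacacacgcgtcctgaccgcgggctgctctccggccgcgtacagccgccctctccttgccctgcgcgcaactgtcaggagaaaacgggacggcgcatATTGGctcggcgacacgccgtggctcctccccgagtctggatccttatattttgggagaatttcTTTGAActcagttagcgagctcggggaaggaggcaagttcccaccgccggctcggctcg

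All 5 windows were rich in G and C, from 60% in Kif3a to 71.2% in Kif5a, and held between 19 and 30 CpG dinucleotides. Kif11 held a CCAAT box 66 bases and a CHR element 40 bases before its TSS, both read on the opposite strand. Kif3a held 1 CCAAT box, 28 bases before the TSS. No match fell in the windows of Kif13b and Kif5a, whereas Kif26b held a CCAAT box 73 bases and a CHR 9 bases before the TSS.

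The first question was which kinesin genes had an initiation site at a start in each substage. A promoter peak was called for 35 of 38 kinesin genes in leptonema/zygonema (92.1%, 95% Wilson interval 79.2 to 97.3), against 60.7% of all autosomal protein-coding genes. In pachynema 34 were called (89.5%, 75.9 to 95.8), against 61.2%, and in diplonema 32 (84.2%, 69.6 to 92.6), against 52.3%. The intervals cover the counting of genes only. Together the members had 96, 87 and 65 promoter peaks. In every case except Kif26a in diplonema, at least 1 of a called gene's peaks covered a TSS, against 93.8%, 93.9% and 92.9% of all called genes.

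Across the 3 lists, 32 kinesin genes were called in all (84.2%, against 50.2% of all genes). Kif1a (a motor of synaptic vesicle precursors), Kif12 and Kif28 were called in none, a pattern of 35.2% of all genes. Kif19a, a ciliary motor that trims the axoneme, was called only in leptonema/zygonema (2.84% of all genes), and Kif5a and Kif26b were called in leptonema/zygonema and pachynema (7.45%). No kinesin gene was called in pachynema only (2.12% of all genes), in diplonema only (0.437%), in both of these without leptonema/zygonema (1.46%) or in leptonema/zygonema and diplonema without pachynema (0.284%). With the lists cut to equal size by score, 31, 32 and 32 members were called, against 53.4%, 53.8% and 52.3% of all genes. Kif5a and Kif26b were called in no list, and of these 3 genes only Kif19a, in leptonema/zygonema, kept a call. Under that setting Kif3c and Kif21a had no call in leptonema/zygonema and were called in both later lists.

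The members with lost calls were weak where they were called. The stronger of the Kif19a peaks in leptonema/zygonema scored 0.632 at percentile 16.6 and covered the outermost TSSs, and the weaker, 21.6 kb into the gene, scored 0.446. Kif5a had 1 peak in each of its lists, covering 2 TSSs, with a score of 0.448 in leptonema/zygonema (percentile 7.5) and 0.373 in pachynema (percentile 4.46). Kif26b scored 0.287 in leptonema/zygonema, from a peak 895 bp upstream, at percentile 0.253, and 0.417 in pachynema, from a peak over the TSS at chr1:178528951-178529330, at percentile 7.1. All of these lay below percentile 20 of their lists.

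**Figure D1:**
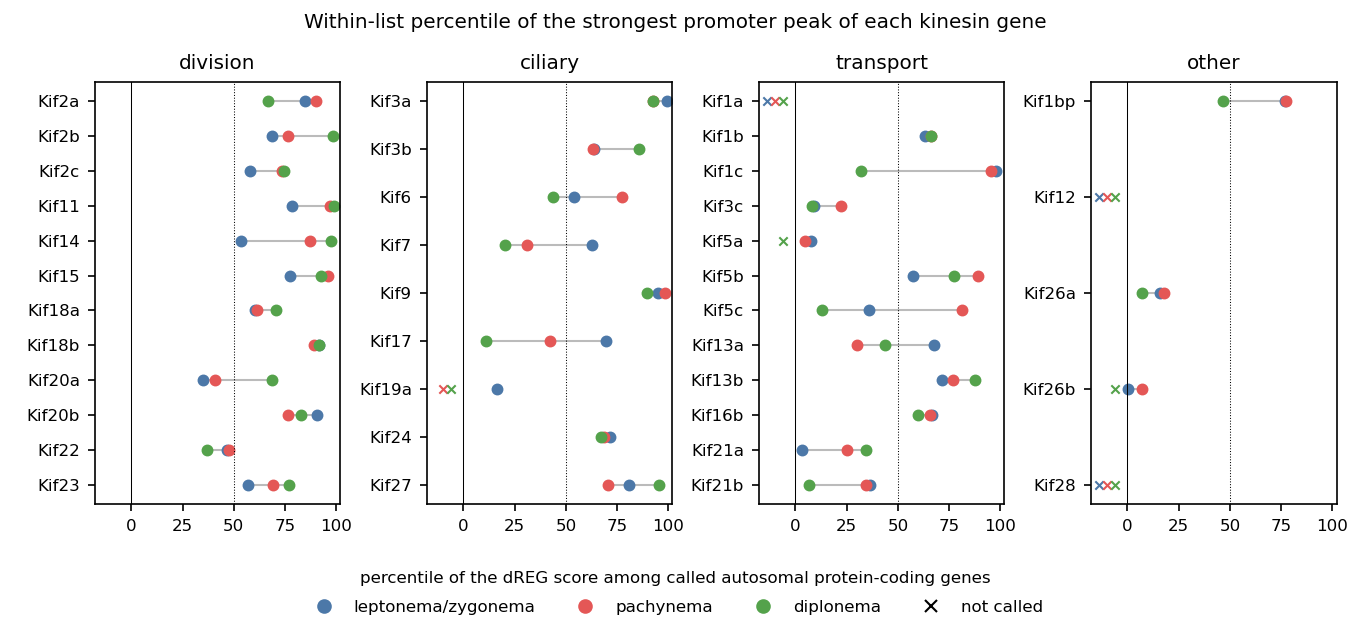
Percentile of the strongest promoter peak of each of the 38 kinesin genes (x axis, percentile of the dREG score among called autosomal protein-coding genes of the same list), in panels by class, with 1 point per substage, a grey line over the gene's range and a cross left of 0 where no peak was called. Division kinesins sit mostly right of the dotted middle line at 50, and Kif1c, Kif5c, Kif17 and Kif7 span wide ranges.

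Division kinesins were called without exception. All 12 had a promoter peak in all 3 lists (Wilson interval 75.8 to 100%), against 50.2% of all genes. Their median percentile was 64.5, 76.6 and 79.7 in the order of the substages, against a middle of 50, and 5, 7 and 7 of 12 lay at or above percentile 75, against 25%, 24.9% and 25% of all called genes. Kif11 stood highest over the 3 lists, with scores of 1.22, 1.338 and 1.281 at percentiles 78.3, 97 and 98.8, all from a peak over its first exon. Kif18b, a motor that shortens astral microtubules, stood at percentiles 91.6, 89 and 91.6 by its strongest peak and at 64.2, 61.3 and 41.7 by the sum of its peaks. Kif22, a chromokinesin that pushes chromosome arms, stood lowest of the class over the 3 lists, at percentiles 46.9, 47.8 and 37. The class thus spanned from below the middle to near the top of the lists.

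Most division kinesins ranked higher by their strongest peak in the later substages. In pachynema 10 of 12 ranked above their leptonema/zygonema place, with a median difference of 7.01 points, while over all genes called in both lists the median difference was 0.498. With peaks under 1000 bp from a TSS, Kif14, which acts in cytokinesis, moved most, from a score of 1.076 at percentile 53.6 to 1.254 at percentile 87.3. It stood at percentile 97.2 in diplonema. The Kif14 start under these peaks belongs to a retained-intron transcript, and with the TSSs of protein-coding transcripts only, Kif14 stood at percentile 9.74 in leptonema/zygonema and was not called in diplonema. When the peak had to cover a TSS, Kif2a moved further than Kif14, from percentile 23.1 in leptonema/zygonema to 89.7 in pachynema. Between leptonema/zygonema and diplonema, 5 of 12 stood at least 20 points higher (Kif2b, Kif11, Kif14, Kif20a and Kif23), against 15.3% of all genes, and none stood 20 points lower, against 25.3%. Kif23 passed that limit narrowly, and the count was 3 of 12 when the peak had to cover a TSS, with 1 TSS per gene or with protein-coding transcripts only (there of 11). With lists of equal size 6 of 12 stood at least 20 points higher and 0 lower, against 21.4% and 21.5% of all genes. Kif2b, a microtubule depolymerase with a single annotated start, went from percentile 68.5 through 76.6 to 98.6. Kif20a, a motor of the central spindle, went from 34.9 through 40.8 to 68.7, but its start lies beside that of Brd8, its strongest diplonema peak did not cover a Kif20a TSS, and without peaks nearer to another gene its diplonema value was 52.1. Kif23, the motor of the centralspindlin complex, went from 56.8 through 69.2 to 76.8. Kif15, which can stand in for Kif11 on the spindle, stood at 77.5, 96 and 92.3.

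That direction depends on how a gene's peaks are summarised. When the scores of all promoter peaks of a gene were summed, all 12 division kinesins ranked lower in pachynema than in leptonema/zygonema, with a median difference of -10.4 points, and the class medians became 76.2, 64.4 and 71.2. Between leptonema/zygonema and diplonema the median difference then was -7.38, with 0 of 12 at least 20 points higher and 2 of 12, Kif14 and Kif18b, at least 20 points lower, against 13.6% and 24.7% of all genes. The mean number of promoter peaks per division kinesin was 3.42, 2.42 and 2.33 in the order of the substages, while all called genes had means of 2.6, 2.63 and 2.18. Kif14 shows the contrast, with 4 peaks in leptonema/zygonema that scored 1.076, 0.496, 0.463 and 0.41, and with a single peak in pachynema, 1040 bp wide, that scored 1.254. That pachynema peak ran from 432 bp before to 607 bp after the gene start and reached into the positions of all 4 earlier peaks. Kif11 likewise had 4, 3 and 2 peaks. By summed scores Kif20a stood at 89.7, 80.8 and 89.7, Kif11 at 92, 88.4 and 82.1, Kif2b at 78.8, 67.6 and 73.9, Kif15 at 93.3, 69 and 79.7 and Kif23 at 73.7, 60.4 and 58.3. Between pachynema and diplonema the median difference of the class was positive by both measures, but many single genes differed. By summed scores 8 of 12 ranked higher, with a median difference of 9.6 points, against -4.39 over all genes. Kif2a, Kif15 and Kif22 ranked higher by summed scores only, and Kif2c, Kif11, Kif18b and Kif23 by the strongest peak only. The direction from leptonema/zygonema to pachynema thus turned with the measure, and from leptonema/zygonema to diplonema 9 of 12 ranked higher by the strongest peak and 5 of 12 by summed scores.

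**Figure D2:**
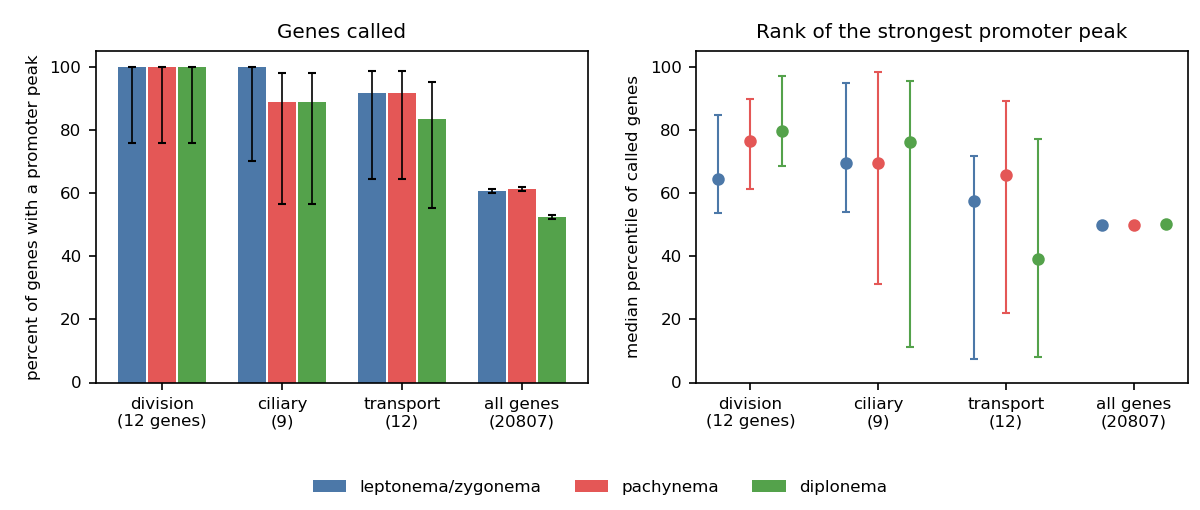
Left, percent of genes with a promoter peak in each substage for division, ciliary and transport kinesins and for all autosomal protein-coding genes, with 95% Wilson intervals. Right, median percentile of the called genes of each class, with the 95% order-statistic interval of the median over genes. All 12 division kinesins were called in each list, and the transport median is lowest in diplonema at 39.1.

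Ciliary kinesins were called for 9, 8 and 8 of 9 genes, against 60.7%, 61.2% and 52.3% of all genes. Their median percentiles were 69.6, 69.6 and 76.3, or 53.8, 54.3 and 50.2 by summed scores. Of the 8 called in every list, 6 ranked lower in pachynema than in leptonema/zygonema, with a median difference of -4.75 points against 0.498 over all genes, but 5 did with lists of equal size and 4 with summed scores. Between pachynema and diplonema 6 again ranked lower, but the median difference of -5.08 was near the -4.32 of all genes, and with lists of equal size or with summed scores 4 ranked lower and 4 higher. By summed scores the median difference turned to 3.22, against -4.39 over all genes. Kif3a stood highest, with scores of 1.424, 1.295 and 1.178 at percentiles 99.4, 92.7 and 92.3, from peaks over the TSS that also lie at the start of the divergent gene A430108G06Rik. Its partner Kif3b, the other motor subunit of that complex, stood at 63.5, 63.4 and 85.4. Kif9, a kinesin of the sperm axoneme, came close to Kif3a, at 95, 98.4 and 89.7, from a region shared with Klhl18. Kif6, of the same family as Kif9, stood at 54, 77.3 and 43.5, highest in pachynema, but by summed scores at 53.8, 37.9 and 45.8, lowest there. When the peak had to cover a TSS, Kif6 stood at 30.2 in leptonema/zygonema. Kif27, a relative of Kif7, stood at 80.7, 70.7 and 95.6, but by summed scores at 65.6, 78.1 and 43.9, with the order turned round. Kif24, which acts at centrioles, stood at 71.3, 68.5 and 67.1. By their strongest peak Kif3a and Kif9 thus lay in the upper 25% of every list. By summed scores Kif3a stood at 47.8, 70.8 and 84.7 and Kif9 at 49.7, 33 and 54.6.

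Kif7 and Kif17 ranked lower in each later list. Kif7, a regulator of Hedgehog signalling at the ciliary tip, had 1 peak over its start in each list, scoring 1.137, 0.828 and 0.53 at percentiles 63, 31.1 and 20.1, the lowest mean percentile among the ciliary genes called in all lists. Kif17, a homodimeric motor known from cilia and dendrites, went from 1.172 at percentile 69.6 through 0.957 at 42.1 to 0.423 at 11.2. These were the only ciliary kinesins at least 20 points lower in pachynema than in leptonema/zygonema, against 10.8% of all genes, and Kif6 was the only one 20 points higher, against 11.1%. With summed scores Kif17 kept that order, at 58, 30.5 and 8.93, and so did Kif7 over a smaller range, at 24.5, 15.8 and 13.6.

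Transport kinesins were called for 11, 11 and 10 of 12 genes, against 60.7%, 61.2% and 52.3% of all genes. Their median percentiles were 57.6, 65.7 and 39.1. Of those called, 1, 4 and 2 lay at or above percentile 75, against 25%, 24.9% and 25% of all called genes. Kif13b stood highest over the 3 lists, with scores of 1.183, 1.199 and 1.133 at percentiles 71.7, 76.7 and 87.7, although by summed scores it stood at 26.3, 60.5 and 39.9. Kif3c, a relative of Kif3a and Kif3b, stood lowest of those called in every list, with scores of 0.482, 0.687 and 0.384 at percentiles 9.07, 22 and 8.02. In leptonema/zygonema the class ran from percentile 3.07 to 97.9.

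The 3 heavy chains of conventional kinesin differed. Kif5b, the form that most tissues use, was called in every list, scored 1.103, 1.265 and 1.048 and stood at percentiles 57.6, 89.1 and 77.1, although by summed scores it stood at 77.9, 77.3 and 94.6, highest in diplonema. Kif5c scored 0.916, 1.223 and 0.443, at percentiles 35.7, 81.3 and 12.8, so it was much the highest in pachynema. By the strongest peak its difference of 45.6 points between leptonema/zygonema and pachynema was the largest of the class. With summed scores Kif5c stood at 44.7, 72.5 and 24.8, in the same order, but Kif21a (2.84 to 81.6) and Kif13b (26.3 to 60.5) then moved further. Kif5a was weak in both lists that called it, and in lists of equal size it had no call. Of 10 kinesin light chains and cargo adaptors examined, 9, 9 and 5 were called, against 60.7%, 61.2% and 52.3% of all genes, so that the diplonema share was near the background. The light chain genes Klc1, Klc2 and Klc3 and the kinesin-associated Kifap3 were called in both earlier lists and not in diplonema, a pattern of 7.45% of all genes. The exception among light chains was Klc4, which stood at 87, 98.3 and 56.5.

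Between pachynema and diplonema 3 of 10 transport kinesins called in both lists stood at least 20 points lower, Kif1c, Kif5c and Kif21b, against 21.7% of all genes, and none stood 20 points higher, against 7.8%. By summed scores 6 of 10 stood at least 20 points lower, with Kif13a, Kif13b and Kif21a added, against 22.5% of all genes, and the median difference was -23.2 in place of -8.91, against -4.39 and -4.32 over all genes. With lists of equal size 2 of 10 stood at least 20 points lower and 1, Kif13a, higher, against 16.2% and 14.5% of all genes, and the median difference was -2.23, against 0.502, so the class was then near the background. Kif1c, a motor of Golgi and vesicle traffic, scored 1.378, 1.318 and 0.666 at percentiles 97.9, 95.3 and 31.8, from a region that also holds the start of Inca1, and by summed scores it stood at 50.2, 60.2 and 31.8. Kif21b went from 36.3 and 34.3 to 6.39. Without peaks nearer to another gene, here Gm15850, it stood at 23.3, 33.7 and 6.68. Kif13a, a relative of Kif13b that carries endosomes, went from 67.7 to 30.1 and 43.8, but by summed scores it stood at 98.6, 97.7 and 71.7, and with 1 TSS per gene at 36.8, 30 and 43.8. Kif21a moved the other way, at 3.07, 25.3 and 34.4, with scores of 0.356, 0.74 and 0.695, and by summed scores it stood at 2.84, 81.6 and 48.4. Kif1b stood at 63.1, 66.1 and 66.2 and Kif16b at 66.8, 65.7 and 59.8, but by summed scores both were at least 20 points lower in diplonema than in leptonema/zygonema, at 64.3 against 87.5 and at 68.4 against 89.2.

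Among the other genes, Kif1bp stood highest, at percentiles 76.9, 77.3 and 46.8, but its strongest peak in each list lay over a TSS of 4933428P19Rik, 294 to 404 bp from the nearest Kif1bp TSS. When peaks nearer to another gene were left out, Kif1bp stood at 31.9, 5.61 and 11.5. Kif26a, an atypical kinesin like Kif26b, stood lowest of those called in every list, with scores of 0.619, 0.623 and 0.372 at percentiles 15.9, 17.9 and 7.07. The percentiles of Kif2a, a depolymerase of spindle poles, also lean on a neighbour. It stood at 84.7, 89.9 and 66.6, and its leptonema/zygonema value became 26.3 when peaks nearer to another gene, here 3830408C21Rik, were left out. The strongest peak was shared with a start of another gene for 12 of 35, 11 of 34 and 11 of 32 called members, against 33.6%, 33.6% and 36.1% of all called genes, a share near the background.

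Some kinesin genes had a peak at a start inside the gene. In 6 members, in at least 1 list, a promoter peak covered an annotated TSS and lay wholly 1000 bp or more downstream of the outermost gene start. That count was not made over all genes. The share of kinesins with several separate starts in use was near the background. Of 31 members with 2 or more groups of starts, 5, 6 and 3 had a peak at 2 or more of them, against 16.5%, 16.8% and 10% of all such genes. Kif13b used such a start alone, 5.1 kb in, with no peak at the outermost start in any list. Kif17 had its strong peak 11.8 kb in, and at its outermost start only 1 weak pachynema peak that scored 0.346 and also covered a start of Sh2d5. At Kif2c, a depolymerase of kinetochore microtubules, the inner start 3.83 kb in equalled the outer one in leptonema/zygonema, with scores of 1.104 and 1.102, and fell behind it in pachynema (1.08 and 1.181) and in diplonema (0.718 and 1.026). At Kif15 the inner start 30.5 kb in scored 0.966, 0.685 and 0.431 beside 1.216, 1.327 and 1.178 at the outer one. At Kif13a the inner start 33.7 kb in scored 1.162, 0.815 and 0.34 beside 0.917, 0.804 and 0.783. In diplonema the inner Kif13a peak covered no TSS, and the outer one lay 434 bp from the nearest TSS. At Kif5b the inner start 1.14 kb in scored 0.786, 0.602 and 0.911 beside 1.103, 1.265 and 1.048. At Kif2c, Kif15 and Kif13a the inner start thus stood best against the outer one in leptonema/zygonema, and at Kif5b in diplonema.

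**Figure D3:**
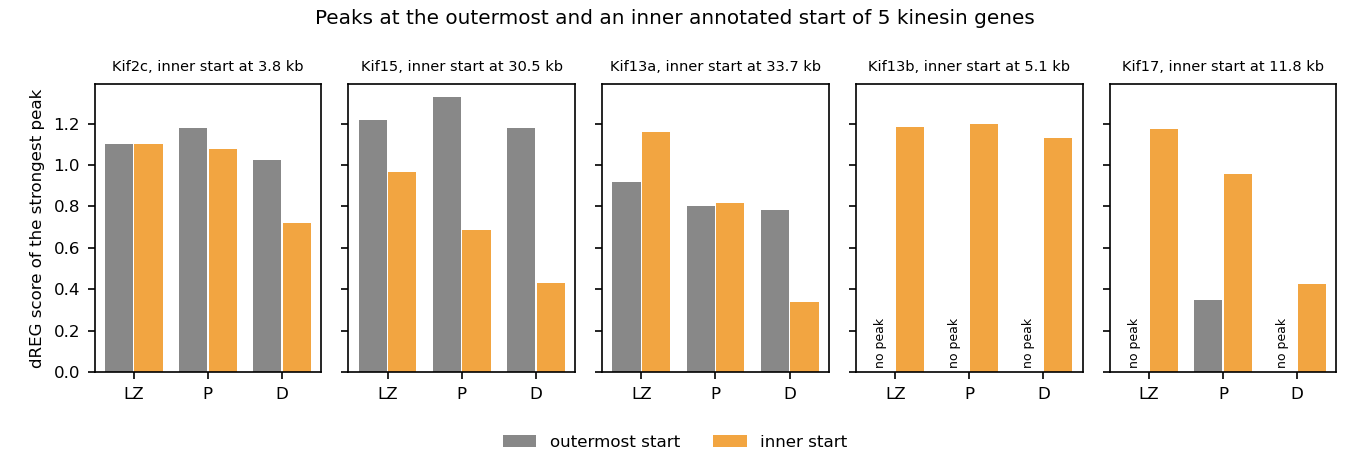
dREG score of the strongest peak near the outermost gene start (grey) and at an inner annotated start (orange) in the 3 substages (LZ for leptonema/zygonema, P for pachynema, D for diplonema) for Kif2c, Kif15, Kif13a, Kif13b and Kif17, to be compared within a list since scores are not scaled between lists. Kif13b has no peak at its outermost start, and the inner start of Kif13a scores 1.162 against 0.917 in LZ and 0.34 against 0.783 in D.

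Promoter sequence was then compared between the classes. The 300 bases from 250 before to 50 after the outermost start of each gene were searched on both strands for a CCAAT box (CCAAT), the cell cycle homology region or CHR (TTTGAA), a MYB site (GGCNGTT), a CREB core (TGACGT), an RFX core (GTTGCCA) and a TATA box (TATAAA), none of which contains another, though matches may overlap. CCAAT and CHR elements are known from promoters of genes that peak late in the cell cycle. A CHR match was found in 7 of 12 division kinesins (58.3%, Wilson interval 32 to 80.7), in 0 of 9 ciliary kinesins (up to 29.9%) and in 1 of 12 transport kinesins (8.33%, 1.49 to 35.4), against 15.9% of all 20807 windows. The transport gene was Kif13b, at its outermost start, where no peak was called, and not in the window printed above, which lies at its inner start. A CCAAT box was found in 7 of 12, 5 of 9 and 4 of 12, against 38.6%. The MYB site was found in 1 gene of each class, against 12.1%. An RFX core was found in 2 of 9 ciliary kinesins (Kif9 and Kif24), 2 of 12 division kinesins (Kif18a and Kif23) and 1 of 12 transport kinesins (Kif16b), against 4.31%. The CREB core was found in 3 division kinesins, Kif2c, Kif15 and Kif18a, in 1 transport kinesin, Kif5c, and in 0 of 9 ciliary kinesins, against 8.63%, and a TATA box in 1, 1 and 2 genes of the classes, against 12.7%. The division class thus had a CHR share above that of all windows. A match describes letters and not binding.

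The window bears on the CHR counts, most on that of the transport class. In windows from 500 before to 100 after the start, 9 of 12 division, 2 of 9 ciliary (Kif3a and Kif27) and 6 of 12 transport kinesins held a CHR match, against 33.8% of all genes. In windows around the TSS nearest to the strongest pachynema peak, an alternative added after the data were seen, 7 of 12 division and 1 of 11 transport kinesins did, against 11.6% of called genes. The division kinesins with a CHR match were Kif11, Kif14, Kif15, Kif18b, Kif20b, Kif22 and Kif23, and in each at least 1 match lay between 40 bases before and 34 bases after the start. Of these, Kif11, Kif14, Kif18b, Kif22 and Kif23 also held a CCAAT box. The stretches below, chosen after the matches were seen, show where the matches lie in the 6 beside Kif11, from 100 before to 50 after the start, with CCAAT and CHR matches on either strand in capitals and the TSS at base 101. Read from GRCm38, they lie at chr1:136466243-136466392 (plus strand), chr9:122950946-122951095 (plus), chr11:102925075-102925224 (minus), chr19:34922261-34922410 (plus), chr7:127042422-127042571 (minus) and chr9:61946725-61946874 (minus).
Kif14: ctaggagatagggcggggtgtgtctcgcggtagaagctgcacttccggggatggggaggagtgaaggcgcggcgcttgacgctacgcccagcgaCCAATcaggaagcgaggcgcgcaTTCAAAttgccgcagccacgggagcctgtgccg
Kif15: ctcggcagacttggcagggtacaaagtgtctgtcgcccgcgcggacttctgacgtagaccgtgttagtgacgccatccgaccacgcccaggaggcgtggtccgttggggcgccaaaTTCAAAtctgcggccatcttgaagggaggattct
Kif18b: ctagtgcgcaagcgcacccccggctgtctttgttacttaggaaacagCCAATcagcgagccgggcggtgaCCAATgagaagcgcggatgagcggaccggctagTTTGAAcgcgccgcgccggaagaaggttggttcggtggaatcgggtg
Kif20b: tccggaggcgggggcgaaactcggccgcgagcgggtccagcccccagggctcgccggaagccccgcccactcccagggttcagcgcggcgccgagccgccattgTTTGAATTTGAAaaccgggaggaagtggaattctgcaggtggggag
Kif22: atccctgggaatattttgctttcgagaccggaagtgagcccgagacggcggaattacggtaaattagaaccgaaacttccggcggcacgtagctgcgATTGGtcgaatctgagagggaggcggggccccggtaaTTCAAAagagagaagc
Kif23: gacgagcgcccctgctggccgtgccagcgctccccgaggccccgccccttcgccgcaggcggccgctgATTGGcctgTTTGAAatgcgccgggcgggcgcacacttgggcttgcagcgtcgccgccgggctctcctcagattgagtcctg

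In Kif18b CCAAT boxes 53 and 30 bases before the TSS preceded the CHR 3 bases after it. Kif23 held its CCAAT box 32 and its CHR 23 bases before the TSS. In Kif20b a pair of CHR matches stood side by side, 4 and 10 bases after the TSS, without a CCAAT box in the 300-base window. The windows of division, ciliary and transport kinesins had median GC contents of 60.8%, 62.3% and 66.5%, against 55.3% over all genes, and median ratios of observed to expected CpG of 0.862, 0.781 and 0.62, against 0.54.

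**Figure D4:**
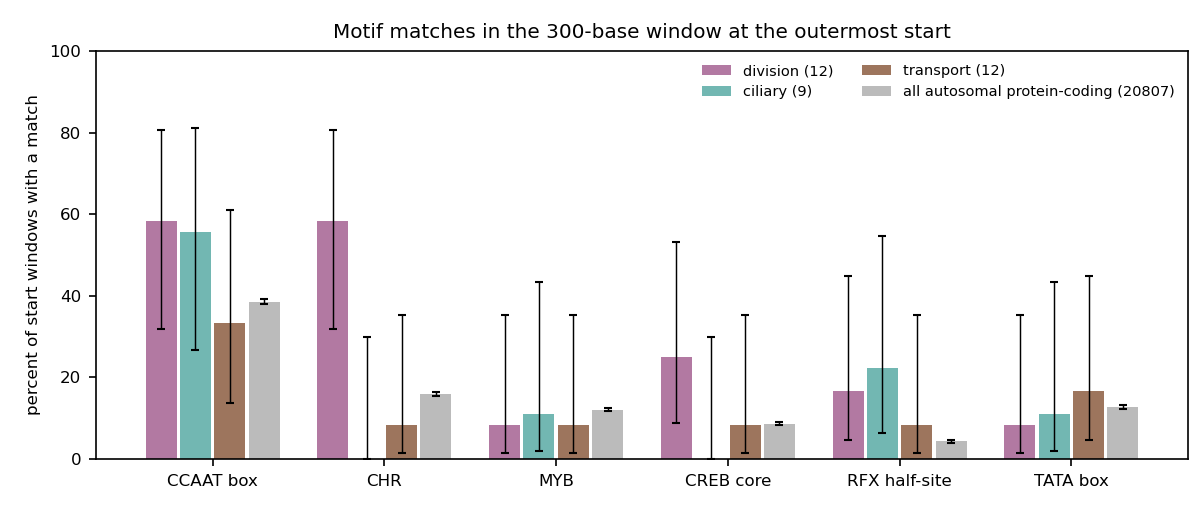
Percent of 300-base start windows with at least 1 match to each motif, on either strand, for division, ciliary and transport kinesins and all autosomal protein-coding genes, with 95% Wilson intervals. The CHR bar of division kinesins stands at 58.3%, against 15.9% for all genes, and no ciliary kinesin has a match in this window.

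Kinesin genes also held peaks inside their bodies, 1000 bp or more from every annotated TSS of any gene. There were 41, 50 and 24 such peaks in the order of the substages, in 18, 15 and 11 of 38 genes, against 26.5%, 24.6% and 13.6% of all autosomal protein-coding genes. Per 100 kb of gene that is 1.38, 1.68 and 0.808 peaks, against 1.39, 1.22 and 0.517 over all genes. With the lists cut to equal size by score, the rates became 0.774, 0.673 and 0.808, against 0.623, 0.541 and 0.517. Merged over the lists, the peaks formed 54 regions in 20 genes, 45 of them without an exon.

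The strongest of these were placed among all peaks 1000 bp or more from a TSS in the same list, 35001, 31655 and 13575 of them. Kif13b held a region at chr14:64755721-64756590, 108.5 kb into the gene, that scored 1.264, 1.114 and 0.987 at percentiles 96, 93.5 and 94.2. A region 181.2 kb into Kif6, chr17:49796061-49796640, scored 1.136, 1.073 and 0.969 at percentiles 90.5, 92 and 93.5. The one 79.5 kb into Kif5c scored 1.131, 0.931 and 0.536 at percentiles 90.3, 85.6 and 62.7, so it did not share the pachynema high of the Kif5c promoter.

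A pair of strong regions was absent from the leptonema/zygonema list. In Kif26b, chr1:178644621-178645700, 115.6 kb into the gene, scored 1.112 in pachynema and 1.082 in diplonema, at percentiles 93.4 and 96.8, while the promoter of the gene was weak in pachynema and had no call in diplonema. In Kif13a, chr13:46758061-46759510, 171.6 kb into the gene, scored 1.036 and 0.991, at percentiles 90.4 and 94.3. Both regions lie in introns. Kif3b held 7 regions between 5.93 and 19 kb from its start, of which 6, 5 and 2 were called in the order of the substages. Kif1a, without a promoter peak, held 1 weak region, called only in leptonema/zygonema, with a score of 0.45.

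**Figure D5:**
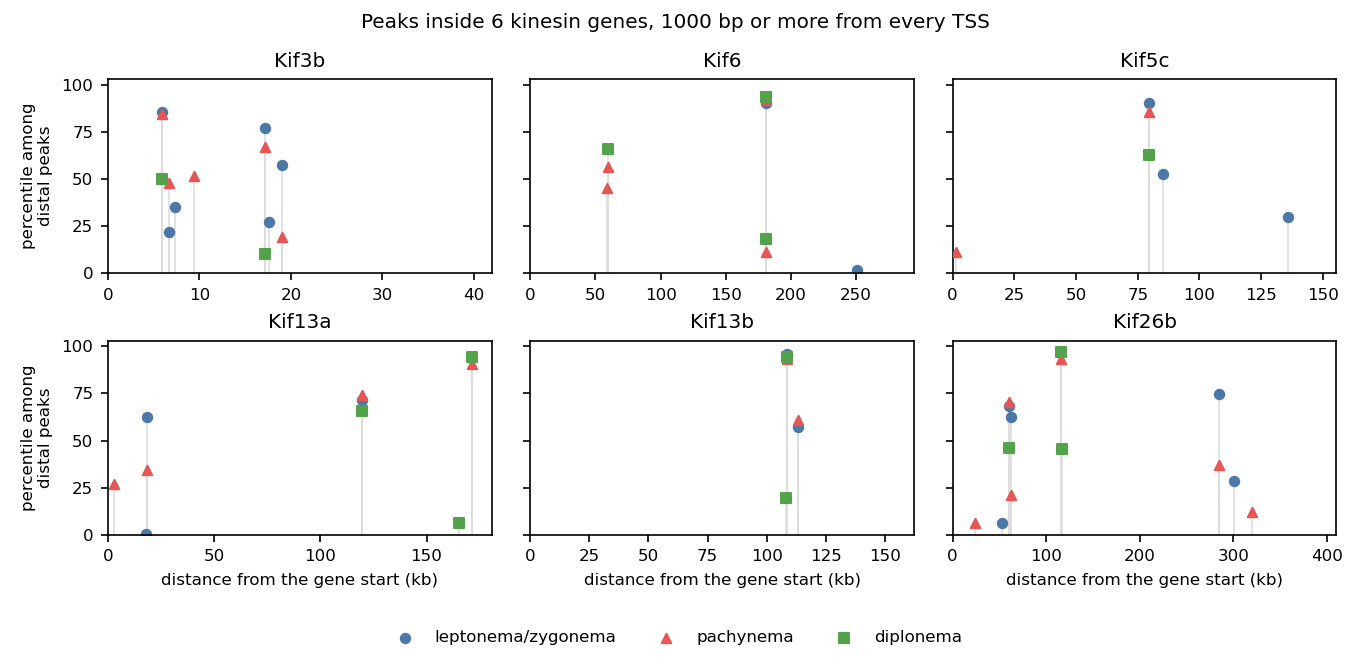
Peaks inside 6 kinesin genes, by distance from the gene start (x axis, kb, to the gene end) and by percentile of the dREG score among all peaks of the list that lie 1000 bp or more from a TSS (y axis), with 1 symbol per substage. Kif26b at 115.6 kb and Kif13a at 171.6 kb show strong points in pachynema and diplonema and none in leptonema/zygonema.

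Genes that work with kinesins were read against the same 60.7%, 61.2% and 52.3% of all genes called. All 24 genes of the intraflagellar transport particle, the cargo train that Kif3a and Kif3b pull, had a promoter peak in every list, with median percentiles of 68, 65.3 and 63.3. All 9 spindle midzone and pole genes examined, which include the kinesins Kifc1 and Cenpe, were called in every list, at medians of 68.1, 64.5 and 61.7. Prc1, which bundles midzone microtubules and binds kinesins, went from percentile 95.6 to 58.3 and 24.2, whereas Ect2 stood at 68.1, 86.3 and 87.8. Of 17 genes of cytoplasmic dynein and dynactin, which move toward the other microtubule end, 16, 17 and 16 were called, at medians of 57.6, 64 and 48.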

How the data were processed

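Per the labels and the study's methods, the authors made leChRO-seq libraries, 4 for each of 3 substages, trimmed reads with cutadapt, mapped them with BWA to mm10, merged the libraries of a substage and called peaks with dREG. For each peak they deposited a dREG score and a p-value (at most 0.05, adjustment not given in the sources used here). No read counts were analysed here. From these lists, peak edges were set against GENCODE M21 TSSs (under 1000 bp), and the gene's highest score was turned into a mid-rank percentile among called autosomal protein-coding genes. Sequence came from GRCm38, and 34 of 34 RefSeq promoter entries of members were identical to it. Wilson intervals at 95% cover counting only. Members and lists were chosen with earlier results of these data known. Genes named in full were those called in 1 or 2 lists, and per class those highest, lowest and most shifted between leptonema/zygonema and pachynema; others were named after their values were seen. Steps were tested on simulated data, with 0 errors in 792 genes. The scripts ran in Python 3.11.15 with pysam 0.24.0, pandas 2.3.3, matplotlib 3.10.9, scipy 1.17.1 and numpy 2.4.6. Alternatives changed the distance, TSS set, score or p-value limit, list size, neighbour peaks, summary score, classes and sequence window. The start sequence of 1 member is not reported here.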

Additional observations from a re-analysis of the deposited data

How the results depend on the processing

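Of 330 alternative values, 317 kept their place, 11 moved and 2 reversed. Of those that moved, 10 belonged to the headline results. For medians and shares, a value kept its place when it fell inside the interval of the main value. Those intervals were wide for small classes. The ciliary median in diplonema had an interval from 11.2 to 95.6, and the transport median in leptonema/zygonema one from 7.5 to 71.7. The count of 317 therefore says little about how stable the class values are. With summed scores the median difference of the division kinesins turned from 7.01 to -10.4 points between leptonema/zygonema and pachynema and from 15.7 to -7.38 between leptonema/zygonema and diplonema, and the ciliary median in leptonema/zygonema became 53.8. In the leptonema/zygonema and diplonema comparison the interval of the main median ran from -8.02 to 30.2, on both sides of 0. The cause of the reversals was not tested. Ranking among all genes, called or not, raised by construction the median of all members to 77.6 and that of transport kinesins to 74.2 in leptonema/zygonema, and that of all members to 81.6 in pachynema. With peaks scoring at least 0.5, 7 members had calls that differed between lists in place of 3, and peaks inside genes numbered 24, 22 and 10. With lists of equal size, Kif5a and Kif26b had no call in any list, member calls were 31, 32 and 32, and peaks inside genes numbered 23 and 20 in leptonema/zygonema and pachynema. In the longer sequence window 50% of transport kinesins held a CHR match. With the TSSs of protein-coding transcripts only, Kif14 lost its diplonema call, because its outermost start belongs to a retained-intron transcript. With 1 TSS per gene, Kif13b lost its call in every list and Kif17 in leptonema/zygonema and diplonema. No paired analysis was possible because 1 pooled list per substage carries no replicate numbers. Nor could single libraries be dropped. Unequal list length, and sequencing depth that was not compared between substages here, limit what a missing call says.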

Other observations

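Kinesin genes outside the symbol rule gave a further view of the family. The X-linked Kif4, a chromokinesin that works with Prc1 at the midzone, had a promoter peak in every list, with scores of 1.138, 1.289 and 1.087, which place it at percentiles 63.1, 92.2 and 82.3 of the autosomal genes. The score is a confidence that a site initiates, so these percentiles do not measure how much Kif4 was transcribed. The paper describes silencing of the sex chromosomes as spermatocytes enter pachynema, which was not examined here. Cenpe, the kinetochore motor, stood at 69.2, 65.7 and 77.5. Of the minus-end-directed kinesins, Kifc1 stood at 51.2, 60.1 and 41.9 and Kifc5b at 57.1, 48.6 and 57.1. Kifc3 was highest in pachynema, at 23.5, 56.3 and 28.3, and Kifc2 was weak, at 7.35 and 6.73, with no call in diplonema.

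Inner regions of further members also stood out. Kif9 held a region 33 kb into the gene, called only in leptonema/zygonema, with a score of 1.102 at percentile 89.1 of peaks away from a TSS. Kif20b held an intronic region 39 kb in that was called in each list, at percentiles 77.6, 73.9 and 78.3.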
